A study of Mus musculus with 12 samples.

Results

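Single-nucleus RNA sequencing of mouse liver was used to describe 9 genes of the epithelial keratin network and of cell-cell junctions in 3 sample types from the same 8 mice. The genes were Krt8 and Krt18 (keratins), Cdh1 and Cdh2 (classical cadherins), Cldn1, Cldn2 and Tjp1 (tight junction), and Gjb1 and Gjb2 (gap junction connexins). They were chosen by gene name, as parts of these structures, from 32285 genes in the count matrices, with earlier results of these data known. Liver (L) was a piece of the median lobe cut after the liver had been flushed with EGTA buffer and before collagenase. Cell Suspension (CS) was taken after collagenase digestion and low-speed washing and was frozen at once. Primary Hepatocytes (PH) were cells of that suspension kept for 24 h on collagen-coated plates in medium with dexamethasone and insulin, then lifted with trypsin. All mice were wild type with no further treatment. CS and PH differ from L by the isolation with its low-speed spins, and L came from the median lobe alone. PH differs additionally by attachment, medium, time and trypsin. The labels give the strain as C57BL6J, whereas the methods name male adult C57BL/6NTac mice. Each mouse gave 1 sample of each type, and 24 hashtagged samples were run in 6 pools of 4.

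Hepatocytes are held together and sealed around the bile canaliculus by junctions. Cadherins of adherens junctions join neighbouring cells through catenins to actin, claudins and their scaffold proteins form the tight junction that separates bile from blood, and connexins build gap junction channels that pass ions and small metabolites between cells. The keratin pair Krt8 and Krt18 forms the only abundant intermediate filament of the hepatocyte, anchored at desmosomes. Along the lobule, E-cadherin (Cdh1) is known as a periportal and claudin-2 (Cldn2) as a pericentral protein.

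The matrices held 53467 annotated nuclei. The hepatocyte sums used below came from 821 to 2600 nuclei per L sample, 693 to 2652 per CS sample and 1863 to 2379 per PH sample, with 6872031 to 29023569, 2104087 to 17452582 and 9852007 to 21226254 unique molecular identifiers (UMIs), respectively. The same 337 cell barcodes occurred in more than 1 pool, which touched 676 nuclei, each identified by its pool. Hepatocyte markers were 7 genes, Alb and Cps1 among them. All 7 were present in every sample type, and their summed level in hepatocyte nuclei was 9293 to 14554 CPM (UMIs of the genes relative to all UMIs of the sum) in L, 11757 to 15933 in CS and 2228 to 6467 in PH. All 7 were also detected in the endothelial-marker nuclei described below, so presence alone does not set hepatocytes apart. The sum there in PH, 1154 to 4346 CPM, overlapped that of the hepatocyte nuclei. Most PH nuclei were counted as hepatocytes by a default rule given with the processing, not by these markers. The hepatocyte nuclei of the 3 sample types lay almost wholly in separate clusters of the study, those of CS mostly in clusters 2, 4, 7, 10 and 21, those of PH in clusters 0, 1, 8, 14 and 17, and those of L in the other hepatocyte clusters. One cluster counted among the hepatocytes, cluster 8 of the study, was led by mitochondrial genes and had a median of 1608 UMIs. No member's call in hepatocyte nuclei changed without it. The nuclei termed endothelial-marker nuclei below were endothelial by annotation in L and CS, but for 2 nuclei of L and 26 of CS that belonged to cluster 12. In PH 1733 of 1809 were of cluster 12, labelled Cultured Cells in the deposited annotation, whose 9 endothelial markers summed to 12.2-fold the level of the other nuclei. That cluster had a median of 1355 UMIs against 5385 over all PH nuclei. None of the 9 markers was among its 10 leading genes, which included Itgb3, Cd93, Fabp4 and Esm1. Likewise, none of the 7 hepatocyte markers was among the leading genes of clusters 0, 1, 8, 14 and 17. The paper names a PH population dedifferentiated endothelial cells by markers that include Arhgap31 and Adgrf5, expressed at reduced levels. It also describes high Itgb3 in these cells. The wider term endothelial-marker nuclei is kept here.

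The 2 keratin genes lie side by side and the connexin gene Gjb2 had the largest fall of the members, so their promoters are printed here as the sequence context of these changes. Krt8 (ENSMUSG00000049382) spans chr15:101996698-102004482 on the minus strand and Krt18 (ENSMUSG00000023043) chr15:102028180-102032027 on the plus strand in GRCm38, with 23.7 kb and 0 annotated genes wholly between them. The lincRNA gene Gm36026 on the plus strand overlaps Krt8. Gjb2 (ENSMUSG00000046352) spans chr14:57098600-57104702 on the minus strand. RefSeq promoters on GRCm38.p6, 250 bases before to 50 after a start site, were found for 7 of the 9 members. Those of Krt8 (chr15:102004293-102004592, minus strand), Krt18 (chr15:102027966-102028265, plus strand) and Gjb2 (chr14:57104653-57104952, minus strand) read as follows, 5′ to 3′, with matches to any of 5 searched motifs in capitals.
Krt8: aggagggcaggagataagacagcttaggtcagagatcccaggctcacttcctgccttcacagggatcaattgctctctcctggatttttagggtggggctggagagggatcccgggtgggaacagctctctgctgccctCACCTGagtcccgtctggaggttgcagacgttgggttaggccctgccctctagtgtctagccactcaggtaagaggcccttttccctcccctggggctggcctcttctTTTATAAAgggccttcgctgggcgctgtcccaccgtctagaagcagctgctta
Krt18: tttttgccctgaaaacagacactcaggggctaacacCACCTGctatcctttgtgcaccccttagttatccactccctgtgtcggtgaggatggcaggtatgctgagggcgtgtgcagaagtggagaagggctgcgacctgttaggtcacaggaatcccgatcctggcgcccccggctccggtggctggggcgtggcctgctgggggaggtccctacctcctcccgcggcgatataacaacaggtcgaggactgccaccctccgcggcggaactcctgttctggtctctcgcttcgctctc
Gjb2: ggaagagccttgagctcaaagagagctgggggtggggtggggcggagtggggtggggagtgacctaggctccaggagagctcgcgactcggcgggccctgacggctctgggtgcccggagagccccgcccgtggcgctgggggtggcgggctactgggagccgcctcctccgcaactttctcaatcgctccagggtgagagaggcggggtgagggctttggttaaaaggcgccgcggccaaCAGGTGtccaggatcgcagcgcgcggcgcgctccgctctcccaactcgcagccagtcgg
Each motif was searched on both strands, and the shares are of 32851 promoters of this length. They were TGANTCA for AP-1 (in 7.81%), GGAATG for TEAD (14.7%), TATAAA as the core promoter element (13.6%), CACCTG as the E-box that Snail-type repressors bind (20.2%) and GTTAAT for HNF1 (7.10%). An E-box lay at -111 in the Krt8 window, at -214 in the Krt18 window and, as its reverse complement, at -9 in the Gjb2 window, counted from the RefSeq start. Krt8 also held TATAAA at -1, overlapping its reverse complement at -3. The letters searched for AP-1, TEAD and HNF1 were in none of these 3 windows. GC content was 58%, 61.3% and 70%.

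Both keratins were higher in hepatocyte nuclei after isolation, and in PH they lay between the levels of L and CS. All values are UMI counts summed over the hepatocyte nuclei of a sample and given as CPM after edgeR's TMM scaling (TMM CPM), and changes are edgeR quasi-likelihood log2 fold changes with their standard error (SE) and Benjamini-Hochberg adjusted p over all 26778 genes tested. Krt8, the type II keratin of simple epithelia, had a lowest, median and highest level of 15.6, 24.4 and 37.3 TMM CPM in the 8 L samples. The same 3 values were 317, 472 and 939 in CS and 191, 264 and 287 in PH. The ranges of the 3 sample types did not overlap, and every mouse had the order L, PH, CS from low to high. Krt8 rose 21.2-fold from L to CS (log2 4.41, SE 0.22, adjusted p = 1.94e-15) and stood 10.2-fold above L in PH (log2 3.35, SE 0.21, adjusted p = 1.03e-14). From CS to PH it fell by 1.06 on the log2 scale (SE 0.19, adjusted p = 2.1e-05). In plain CPM without TMM scaling the medians were 21.2, 379 and 350 in L, CS and PH, so that PH stood nearer to CS.

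Krt18, the type I partner with which Krt8 pairs in the filament, followed the same order. Its lowest, median and highest levels were 35.0, 59.9 and 78.6 TMM CPM in L, 463, 693 and 1409 in CS, and 254, 283 and 396 in PH. Again no range met another under TMM scaling. In plain CPM the keratin ranges of CS and PH overlapped, at 417 to 1037 and 315 to 529 for Krt18 (medians 594 and 387) and 291 to 691 and 259 to 365 for Krt8. Krt18 rose 14.2-fold from L to CS (log2 3.82, SE 0.23, adjusted p = 1.52e-13) and 5.06-fold from L to PH (log2 2.34, SE 0.21, adjusted p = 6.17e-11), and fell by 1.49 on the log2 scale from CS to PH (SE 0.21, adjusted p = 3.11e-07). The fall of both keratins in culture depended on the RNA fraction. On unspliced counts alone it was -1.62 for Krt8 and -2.24 for Krt18, on spliced counts alone it was -0.36 for Krt8 (adjusted p = 0.129) and -0.44 for Krt18 (adjusted p = 0.035).

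Cdh1, E-cadherin (ENSMUSG00000000303, chr8:106603351-106670246, plus strand), gave no call from L to CS and was higher after culture. Levels ran from 59.6 over a median of 75.1 to 106 TMM CPM in L, from 61.2 over 89.9 to 127 in CS and from 100.2 over 113 to 172 in PH. The ranges overlapped between all 3 types, although PH was above L in 8 of 8 mice. In plain CPM without TMM scaling PH lay above L without overlap, at 124, 160 and 230.3 as lowest, median and highest against 51.0, 69.2 and 95.1. Cdh1 rose from L to PH by 0.73 on the log2 scale (SE 0.16, adjusted p = 1.99e-04) and from CS to PH by 0.49 (SE 0.16, adjusted p = 0.00968), the latter losing its call without mouse 8 (0.38, adjusted p = 0.0579). The L to CS difference was 0.24 (SE 0.16, adjusted p = 0.317), but 0.65 on spliced counts alone (adjusted p = 0.00482).

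Cdh2, N-cadherin (ENSMUSG00000024304, chr18:16588877-16809246, minus strand), which hepatocytes carry beside E-cadherin, moved the other way in culture. Its lowest, median and highest levels were 904, 1081 and 1471 TMM CPM in L, 612, 954 and 1546 in CS, and 228, 310 and 338 in PH. All 8 PH samples lay below every L and every CS sample. Cdh2 fell by 1.94 on the log2 scale from L to PH (SE 0.16, adjusted p = 4.96e-12) and by 1.70 from CS to PH (SE 0.16, adjusted p = 9.72e-11), while CS differed from L by -0.24 (SE 0.15, adjusted p = 0.287). The antisense gene Gm15485 overlaps Cdh2. The fall from L to PH was smaller on spliced counts alone, at -0.91.

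Of the claudins, which form the strands of the tight junction, Cldn2 fell in culture and Cldn1 gave no call under the main test. Both were low, with 10 to 371 UMIs per sample for Cldn2 and 25 to 591 for Cldn1. Cldn2, the pore-forming claudin (ENSMUSG00000047230, chrX:139800828-139811386, plus strand), had a lowest, median and highest level of 2.48, 7.44 and 18.5 TMM CPM in L, 3.19, 11.6 and 22.7 in CS and 1.51, 3.75 and 5.57 in PH. PH lay below CS in every mouse and below L in all but 1, with overlapping ranges. The fall was 1.31 on the log2 scale from L (SE 0.35, adjusted p = 0.00176) and 1.59 from CS (SE 0.36, adjusted p = 3.46e-04), the latter at -0.67 with no call on unspliced counts alone (adjusted p = 0.406). Unspliced Cldn2 UMIs numbered 10 over all CS samples and 17 over all PH samples, too few for that check to decide. Cldn1, a barrier-forming claudin (ENSMUSG00000022512, chr16:26356642-26371841, minus strand), ran from 3.47 over a median of 14.2 to 29.5 TMM CPM in L, from 4.56 over 8.65 to 18.2 in CS and from 9.95 over 16.0 to 28.9 in PH. Its CS to PH difference of 0.76 missed the threshold (SE 0.35, adjusted p = 0.0748) and passed it with the mouse as a block (0.96, adjusted p = 0.00532), on unspliced counts alone (1.25, adjusted p = 0.00779) and without mouse 3 or 7 (0.98 and 0.92). Over all fits with 1 mouse left out the difference ran from 0.51 to 0.98.

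Tjp1, the zonula occludens scaffold that ties claudins to actin (ENSMUSG00000030516, chr7:65296165-65527781, minus strand), gave no call under the edgeR test in hepatocyte nuclei. Levels were 121, 150 and 172 TMM CPM in L, 115, 150 and 191 in CS and 137, 161 and 180.1 in PH as lowest, median and highest. The PH minus L difference was 0.15 on the log2 scale with a 95% interval of -0.07 to 0.38 (adjusted p = 0.285), and the CS minus L difference was 0.02 with an interval of -0.21 to 0.25 (adjusted p = 0.945). The PH minus L call depended on the setting. PH was higher by 0.36 on spliced counts alone (adjusted p = 0.00376), by 0.25 with DESeq2 (0.0426), by 0.24 with edgeR's own filter (0.039) and by 0.29 after thinning to the smallest sample (0.0235), and with the pool as a covariate the difference was -0.17 (adjusted p = 0.302). Scaling also mattered, since plain CPM without TMM had Tjp1 at 111, 136 and 144 in L and 193, 218 and 238 in PH as lowest, median and highest, without overlap. The annotated features Gm44792, Gm44794 and Gm44795 overlap Tjp1.

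The 2 connexins parted on isolation and fell together in culture. Gjb1, the main hepatocyte connexin (ENSMUSG00000047797, chrX:101376378-101385629, plus strand), had a lowest, median and highest level of 192, 286 and 395 TMM CPM in L, 106, 170 and 262 in CS and 13.1, 17.7 and 31.1 in PH. CS was below L in 8 of 8 mice although the ranges overlapped, and PH lay below both without overlap. Gjb1 fell by 0.72 on the log2 scale from L to CS (SE 0.18, adjusted p = 0.00381), a call lost on spliced counts alone (-0.38, adjusted p = 0.0864). It was 15.4-fold lower in PH than in L (log2 -3.94, SE 0.20, adjusted p = 1.73e-16) and 9.33-fold lower than in CS (log2 -3.22, SE 0.20, adjusted p = 1.25e-14).

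Gjb2, the second hepatocyte connexin, which can share channels with Gjb1, ran from 60.6 over a median of 128 to 172 TMM CPM in L, from 166 over 250 to 536 in CS and from 5.12 over 7.03 to 11.2 in PH. CS exceeded L in 8 of 8 mice, the ranges touching by 1 L sample above the lowest CS sample, and all PH samples lay far below. Gjb2 rose 2.26-fold from L to CS (log2 1.18, SE 0.21, adjusted p = 7.83e-05). It then fell 39.3-fold from CS to PH (log2 -5.30, SE 0.25, adjusted p = 2.86e-17) and was 17.4-fold lower than in L (log2 -4.12, SE 0.24, adjusted p = 1.76e-15).

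**Figure D1:**
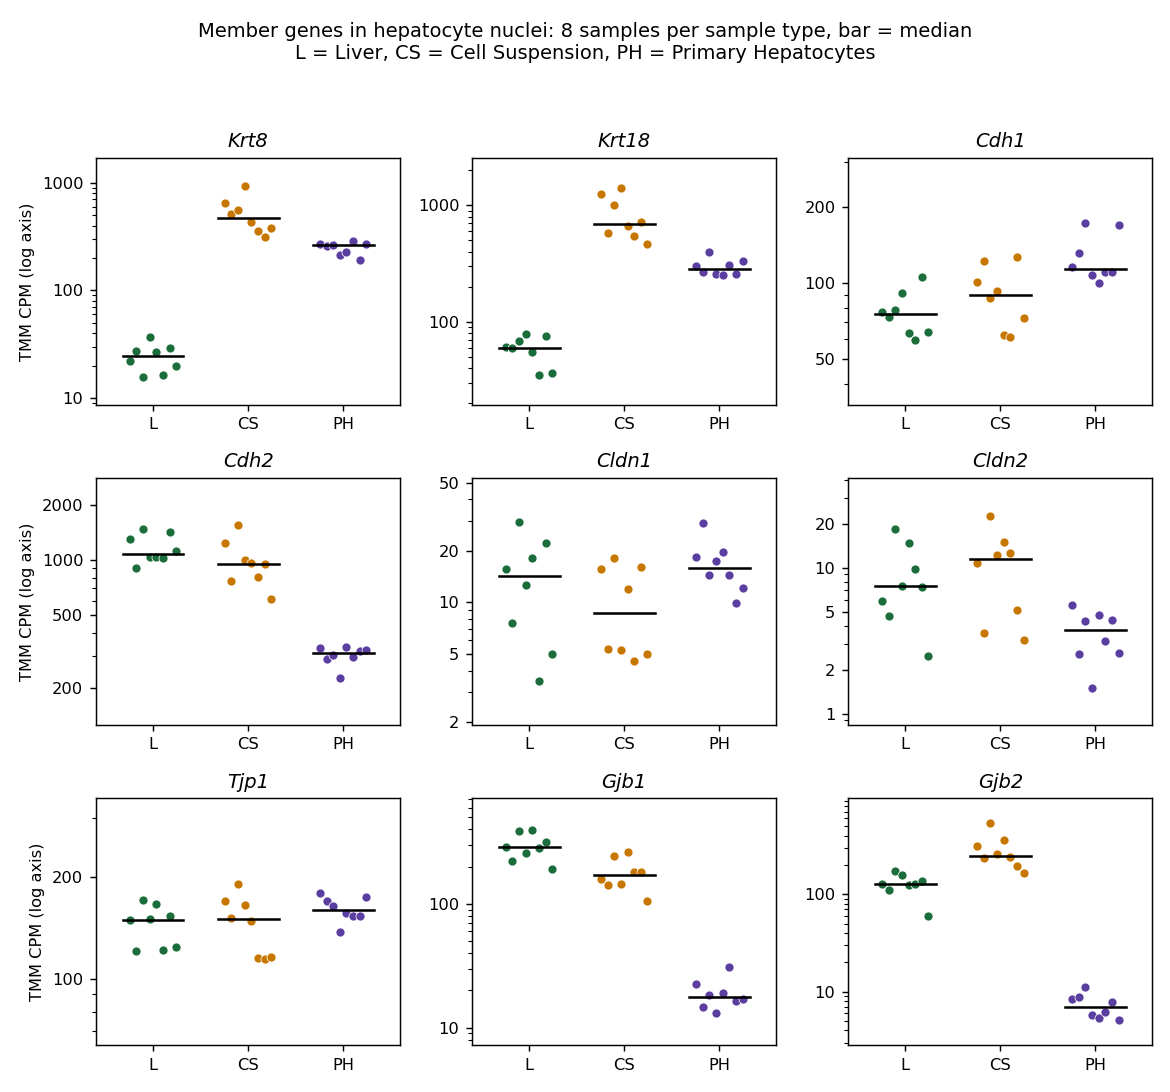
Level of each member in hepatocyte nuclei in TMM CPM on a log axis, 1 point per sample and 8 samples in each of Liver (L), Cell Suspension (CS) and Primary Hepatocytes (PH), with a bar at the median. Krt8 and Krt18 separate the 3 types completely, Gjb1 and Gjb2 sit lowest in PH at medians of 17.7 and 7.03, and the Tjp1 points of the 3 types cover one another.

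From L to CS, 3 members rose and 1 fell, that is 4 of 9, where 22.3% of all genes tested were called (8.15% higher and 14.2% lower). From L to PH, 3 rose and 4 fell, where 53.7% were called (27.4% higher and 26.3% lower), and from CS to PH 1 rose and 6 fell, where 50.4% were called. Ranges of the 8 samples did not overlap for 2 members from L to CS (5.64% of all genes), for 5 from L to PH (30.3%) and for 5 from CS to PH (26.6%). The members were chosen with earlier results of these data known, so these counts are a description and no test of the set. In plain CPM without TMM scaling Cdh1 and Tjp1 also separated PH from both L and CS, while Krt8 and Krt18 no longer separated CS from PH. Plain CPM also separated CS from L for Gjb2, at 149.8 to 397.8 against 54.7 to 146.4. L, CS and PH samples were spread over pools, and pools 1 and 6 held no PH sample and pools 3 and 4 no L sample. Within the pools that held both types every called difference kept its sign, with Krt8 at 3.44 to 5.14 from L to CS in 4 pools and Gjb2 at -4.77 to -3.94 from L to PH in 2 pools (log2 ratios of mean TMM CPM). Tjp1, with no call, was lower in CS than in L in all 4 such pools. Cholangiocyte markers, which could bring Krt8, Krt18 and Cdh1 with them, summed to 134 to 196 CPM in the hepatocyte nuclei of L, 118 to 184 in CS and 152 to 223 in PH, with 8 of 8 markers detected in each. Their median log2 change was 0.34 from L to CS, and 1.03 from L to PH, where 4 of the 8 rose and 2 fell by edgeR. Endothelial markers summed in the same nuclei to medians of 42.6, 62.5 and 124 CPM in L, CS and PH, and stellate markers to 39.5, 43.0 and 176. The part of these cell types in the results was not tested.

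Sums over all nuclei of a sample, whatever their cell type, gave the members called in hepatocyte nuclei the same directions, with 27269 genes tested. On isolation Krt8 (4.47), Krt18 (3.94) and Gjb2 (1.32) rose and Gjb1 (-0.58, adjusted p = 0.0227) fell on the log2 scale, where 20.6% of genes were called. From L to PH 4 members rose, among them Tjp1 (0.25, adjusted p = 0.0397), and 4 fell (55.7% of genes called). From CS to PH 2 rose, Cdh1 (0.67) and Cldn1 (0.92, adjusted p = 0.0273), and 6 fell (50.8% called). Of these calls, those of Tjp1 and Cldn1 were lost with the pool as a covariate (adjusted p = 0.897 and 0.0574), and that of Gjb1 without mouse 1 or 7 (0.0692 and 0.0668) and on spliced counts alone (0.218). Tjp1 was also lost without mouse 1, 2, 6, 7 or 8, on unspliced counts and from nuclei of at least 1000 UMIs, and Cldn1 on spliced counts alone and without mouse 2 or 4. In culture against CS the calls of Krt8 (-0.23, adjusted p = 0.401) and Krt18 (-0.32, adjusted p = 0.166) were lost on spliced counts alone, and that of Cldn2 (-0.52, adjusted p = 0.569) on unspliced counts alone. Unspliced UMIs of Cldn2 were few, at 10 in CS and 17 in PH over hepatocyte nuclei. In bulk sums a change in the share of a cell type and a change in RNA per cell cannot be told apart.

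The share of nuclei with a UMI was compared at 1 fixed depth. After thinning every hepatocyte nucleus of at least 1000 UMIs to 1000 UMIs, which left out 587 of 15166 nuclei in L, 932 of 13339 in CS and 293 of 16283 in PH, Krt8 was seen in 2.43% ± 0.567 of nuclei in L, 30.5% ± 7.34 in CS and 26.2% ± 1.73 in PH (mean ± SD, n = 8). Without thinning the shares were 17.0%, 61.1% and 70.5%. In endothelial-marker nuclei the thinned shares were 1.78%, 5.73% and 9.80%. Before thinning the median UMIs per nucleus were 6861, 3025 and 5916 in hepatocyte and 2862, 1662 and 1499 in endothelial-marker nuclei of L, CS and PH. Krt18 was seen in 5.77%, 40.3% and 29.4% of thinned hepatocyte nuclei. Gjb1 went from 23.1% in L to 13.4% in CS and 2.49% in PH, where endothelial-marker nuclei of PH had 2.41%. For Gjb2 the shares were 9.44%, 17.5% and 0.911%, against 0.659% in endothelial-marker nuclei of PH. Whether free RNA made up these PH shares was not tested. Cdh1 was seen in 6.70%, 6.76% and 12.7%, and Cdh2 in 55.0%, 44.0% and 28.2%. Tjp1 was seen in 11.6% (10.3% to 13.1%), 10.5% and 18.5% (15.6% to 20.5%), so that its share in PH lay above L without overlap while its TMM CPM overlapped. Cldn1 and Cldn2 were seen in 0.499% to 2.07% of nuclei.

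Ratios of paired members within a sample, which do not depend on scaling between samples, are UMI ratios tested by a two-sided exact permutation test with adjustment over 12 tests. The smallest unadjusted p that 8 against 8 samples allow is 0.000155. Krt8 had 0.467 UMIs per Krt18 UMI in L (median, range 0.227 to 0.549), 0.644 in CS (0.441 to 0.882) and 0.863 in PH (0.672 to 0.977). Each step was past the threshold, with adjusted p = 0.00396 for L to CS and 0.0112 for CS to PH by the exact permutation test. On unspliced counts alone the earlier step was 0.50 on the log2 scale and lost its call (exact permutation, adjusted p = 0.0686). On spliced counts alone the later step was 0.10 on the log2 scale and missed the threshold (exact permutation, adjusted p = 0.471). Cdh1 had 0.0602 UMIs per Cdh2 UMI in L, 0.0875 in CS and 0.414 in PH (0.297 to 0.570). The shift from L to PH reached adjusted p = 0.000373 by the same exact test. From L to CS the adjusted p was 0.0379, and this call was lost without mouse 1, 2, 6, 7 or 8, where the log2 difference lay between 0.42 and 0.51, on unspliced counts alone (0.44, exact permutation, adjusted p = 0.0738) and on spliced counts alone (0.37, 0.0937).

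The connexin ratio fell on isolation and was higher again in culture, where few UMIs of either gene were left and the part of free RNA in them was not tested. Gjb1 outnumbered Gjb2 in L with a median ratio of 2.24 (1.66 to 3.16), was below it in every CS sample at 0.619 (0.459 to 0.931) and again above it in PH at 2.46 (1.63 to 4.98). By the exact permutation test L against CS and CS against PH both had adjusted p = 0.000373, and L against PH had 0.515. The Cldn1 to Cldn2 ratio was 1.65 in L, 1.08 in CS and 4.35 in PH (2.25 to 11.4), with an exact permutation adjusted p = 0.00133 for L against PH. From L to CS it gave adjusted p = 0.259, and 0.0341 in an exact test paired by mouse, on a log2 difference of -0.61. On unspliced counts alone this step turned to 0.081 (exact permutation, adjusted p = 0.895). Cldn2 had 41 unspliced UMIs over all L samples and 10 over all CS samples, too few for that check to decide.

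Unspliced and spliced UMIs were counted separately, which shows where the new UMIs of a gene lay. The unspliced share is unspliced UMIs over unspliced plus spliced UMIs in hepatocyte nuclei, and over all genes it had a median of 80.0% in L, 73.2% in CS and 70.8% in PH. The keratins rose against this trend on isolation. Krt8 had a median of 47.9% in L, 61.8% in CS and 43.7% in PH, and Krt18 of 50.5%, 70.2% and 45.4%. From L to CS the mean share rose by 12.6 points for Krt8 and 17.4 points for Krt18, with two-sided exact permutation p adjusted over 27 tests of 0.00140 and 0.000763. From CS to PH the shares fell by 19.2 and 26.8 points, with no overlap between the ranges (adjusted p = 0.000699 for both, exact permutation).

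Other members had a lower unspliced share in CS than in L. Gjb1 went from a median of 78.6% in L to 64.9% in CS and 65.5% in PH, and Gjb2, whose level had risen in CS, from 72.6% to 54.7% and 48.9%. The mean shares fell by 13.3 and 17.0 points from L to CS (adjusted p = 0.000763 for both, exact permutation). Cdh1, Cdh2 and Tjp1, whose exons make up 6.84%, 3.66% and 3.37% of the gene, were counted mostly as unspliced, at medians of 95.2%, 98.1% and 88.0% in L. Cldn2 was the opposite case, with 3.86% in L, 0.495% in CS and 2.89% in PH, so its level was counted almost wholly from spliced UMIs. The Cldn1 share was 60.0% in L, 43.7% in CS and 61.3% in PH, and rose by 17.9 points from CS to PH (adjusted p = 0.00446, exact permutation).

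**Figure D2:**
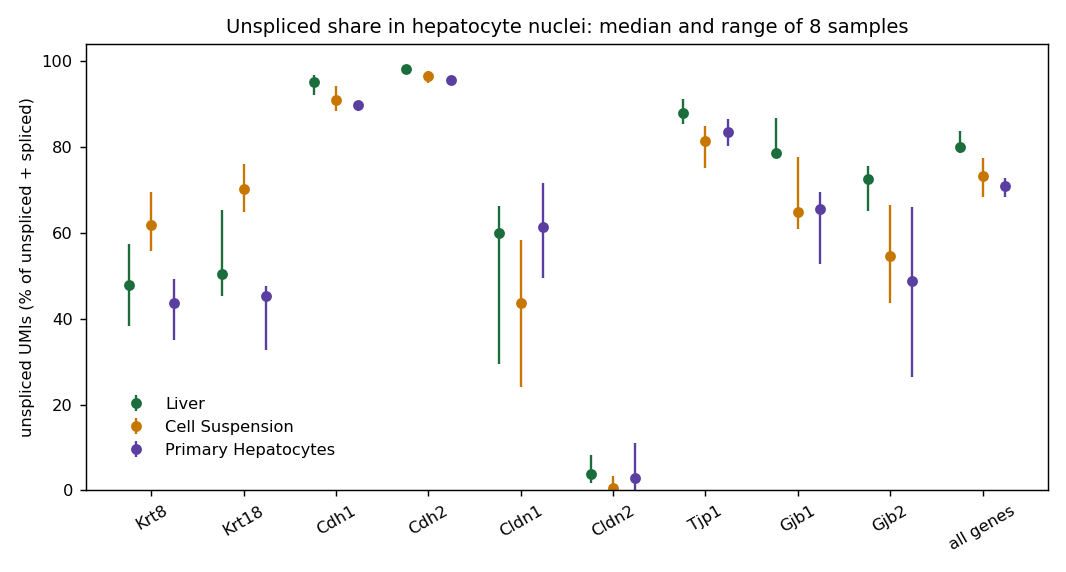
Unspliced share of UMIs in hepatocyte nuclei in percent, for each member and for all genes, as the median (point) and range (line) of 8 samples per sample type. Krt8 and Krt18 are highest in Cell Suspension, at 61.8% and 70.2%, where the share over all genes is lower than in Liver.

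Position along the lobule was estimated for each hepatocyte nucleus from 10 pericentral and 10 periportal genes, none of them a member, counted in 1000 thinned UMIs. The nuclei of each sample were ordered by pericentral minus periportal score and cut into 3 groups of equal size, and the highest (pericentral) and lowest (periportal) groups were summed and compared in 1 edgeR fit with the sample as a block. These score genes were scarce after culture. A nucleus held on average 2.43 pericentral and 4.81 periportal UMIs in L, 2.28 and 7.25 in CS, and 0.227 and 0.536 in PH, and 20.1%, 23.7% and 61.3% of nuclei lay within 0.25 score units of a boundary between groups. A smaller zone difference in PH is thus given beside a score that sorted the nuclei less well, and their separate parts cannot be told apart. The pericentral group of CS held 3.70 periportal UMIs per nucleus against 11.5 in the periportal group, and that of L 1.64 against 8.69. Pericentral UMIs in the same groups were 5.35 and 0.334 in CS and 5.94 and 0.274 in L. The part of this sorting in the changes from L to CS was not tested. Of 25724 genes tested, 15.9% differed between zones in L, 13.1% in CS and 1.47% in PH.

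Cdh1 had the widest zone difference of the members. In L its lowest, median and highest levels were 5.20, 10.2 and 14.0 TMM CPM in pericentral and 106, 141 and 206 in periportal nuclei. CS gave 14.3, 20.2 and 41.3 against 103, 144 and 216, and PH gave 82.6, 101.3 and 168 against 112, 150 and 203. Pericentral nuclei were lower in all 8 mice of each sample type, without overlap in L and CS. The log2 difference was -3.80 (SE 0.12, adjusted p = 9e-32) in L, -2.68 (SE 0.14, adjusted p = 1.09e-22) in CS and -0.46 (SE 0.09, adjusted p = 0.00103) in PH, where it was -0.22 and lost its call with nuclei cut at the median score (adjusted p = 0.232). The periportal median stayed near 141 to 150 TMM CPM in all 3 types, whereas the pericentral median went from 10.2 to 101.3. The zone difference was smaller than in L by 1.11 in CS (adjusted p = 8.86e-04, with 0.882% of genes called) and by 3.34 in PH (adjusted p = 1.24e-23, with 8.7% called). Between CS and PH it shrank by a further 2.23 (adjusted p = 4.25e-15, with 7.31% called).

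Cldn2 and Cdh2 had the reverse zonation. Cldn2 had a median of 12.1 TMM CPM in pericentral and 2.23 in periportal nuclei of L, 20.5 and 4.06 in CS, and 4.05 and 3.28 in PH. The log2 difference was 2.29 (SE 0.16, adjusted p = 2.43e-18) in L and 2.40 (SE 0.20, adjusted p = 1.84e-14) in CS. In PH it was 0.34 (SE 0.19, adjusted p = 0.698), or 1.01 (adjusted p = 1.91e-04) when nuclei were scored on all their UMIs. Cdh2 was higher pericentrally by 0.79 in L (SE 0.10, adjusted p = 2.54e-09) and 0.64 in CS (SE 0.10, adjusted p = 1.96e-06), and by 0.02 in PH (SE 0.10, adjusted p = 0.991). The PH zone differences of both genes were smaller than those in L, by -1.95 for Cldn2 (adjusted p = 2.74e-08) and -0.77 for Cdh2 (adjusted p = 3.73e-05).

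Zone differences of the keratins and connexins in L and CS were smaller than those of Cdh1 and Cldn2. Krt8 was higher in pericentral nuclei by 0.29 in L (SE 0.09, adjusted p = 0.00923; 0.24 and adjusted p = 0.063 without mouse 1) and by 0.68 in CS (SE 0.06, adjusted p = 1.69e-14). In CS the medians were 590.4 TMM CPM pericentrally and 359 periportally, and pericentral nuclei were higher in 8 of 8 mice. Krt18 was higher by 0.35 in CS (SE 0.06, adjusted p = 7.7e-06) and Gjb2 by 0.38 in L (SE 0.07, adjusted p = 1.96e-05). The Gjb2 difference was -0.07 in CS (adjusted p = 0.645), and the change between L and CS was past the threshold (-0.45, adjusted p = 0.0069), though not without mouse 4 (-0.39, adjusted p = 0.0572). Cldn1 was higher periportally in L, at -0.41 (SE 0.11, adjusted p = 0.00499), a call lost without mouse 7 (-0.26, adjusted p = 0.127). Gjb1 passed narrowly in L (0.17, adjusted p = 0.0396), a call lost without any 1 of mice 1, 4, 6, 7 and 8. Tjp1 was lower in pericentral nuclei of CS by -0.19, just short of the threshold (SE 0.07, adjusted p = 0.0523), and passed it with a cut at the median score (-0.15, adjusted p = 0.0377), with RLE size factors (-0.18, adjusted p = 0.0419) and without mouse 3, 6 or 7 (-0.24 to -0.20).

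**Figure D3:**
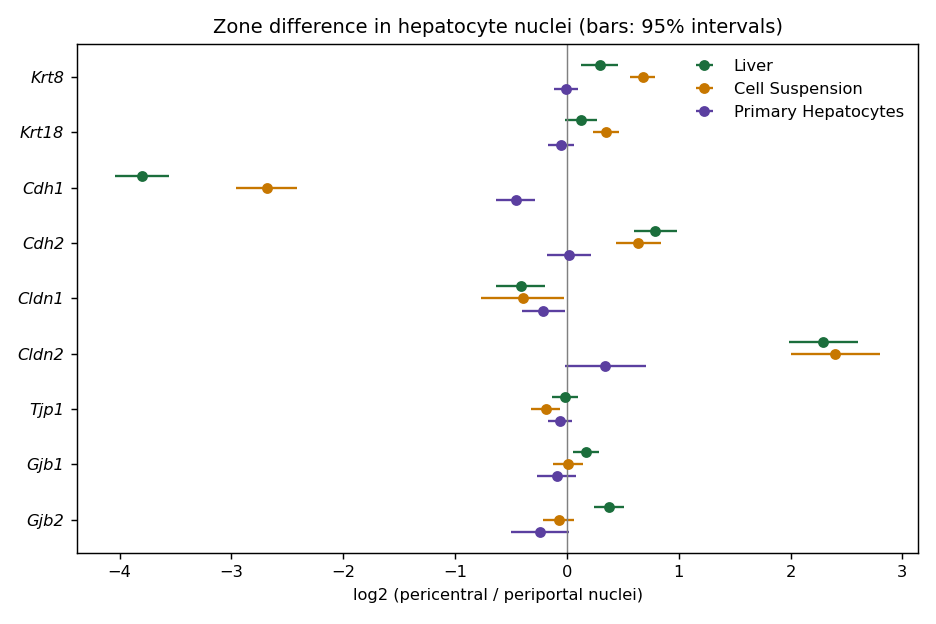
Log2 ratio of pericentral to periportal hepatocyte nuclei for each member in Liver, Cell Suspension and Primary Hepatocytes, with bars of 95% intervals from the edgeR standard errors. Cdh1 lies at -3.80 in Liver and Cldn2 at 2.29, and both move toward 0 in Primary Hepatocytes.

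The members also differed between cell types of the intact liver. Plain CPM over the pooled nuclei of all L samples gave Krt8 21.2 in hepatocytes, 62.5 in cholangiocytes (11 UMIs, exact Poisson 95% interval 31.2 to 111.8, counting error only), 19.0 in mesothelial-like nuclei and 13.8 to 17.5 in endothelial, stellate, Kupffer and other leukocyte nuclei. Cdh1 was at 574 CPM in cholangiocytes (101 UMIs, interval 467 to 697), at 68.1 in hepatocytes and at 1.9 in mesothelial-like nuclei. Cholangiocytes numbered 63 nuclei with 10 or more in 1 sample alone, so they entered no test. Their Krt8 was at 1050 CPM in CS and 1020 in PH, where 41 and 23 nuclei gave 103 and 78 UMIs, and Cldn1 had 0 UMIs there in L, which allows up to 17 CPM by the limit of 3 counts. The cholangiocyte and mesothelial-like nuclei were separated by cluster within the nuclei annotated as biliary epithelial.

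Tjp1, Cdh2 and Cldn2 had their highest pooled level outside hepatocytes and cholangiocytes. Tjp1 was at 501 CPM in endothelial, 274 in mesothelial-like, 244 in cholangiocyte, 133 in hepatocyte and 132 in stellate nuclei. Across the 8 mice it was higher in endothelial than in hepatocyte nuclei by 1.49 on the log2 scale (edgeR with the mouse as a block, SE 0.13, adjusted p = 7.11e-21; 46.7% of 24516 genes were called). Cdh2 was at 1557 CPM in stellate and 1058 in hepatocyte nuclei, which did not differ beyond their spread under TMM scaling (0.18, SE 0.14, adjusted p = 0.319), though they did with RLE size factors (0.63, adjusted p = 3.13e-05) and without mouse 1, 3 or 5 (0.31 to 0.38). Cldn2 was at 57.1 CPM in mesothelial-like nuclei (30 UMIs) and at 8.98 in hepatocytes, higher by 1.63 (SE 0.42, adjusted p = 0.00109; 25.6% called), a call lost without mouse 3 (0.97, adjusted p = 0.467). Gjb1 and Gjb2 were highest in hepatocytes, at 277 and 118 CPM, and lower in each of the 5 types tested by 2.34 or more on the log2 scale. The shares called against hepatocytes over all genes were 41.3% in Kupffer cells, 33.7% in other leukocytes and 40.7% in stellate cells. Krt18 and Cdh1 were lower than in hepatocytes in all 5 types tested, though for Krt18 in mesothelial-like nuclei (-1.05, adjusted p = 0.0438) the call was lost with RLE size factors and without mouse 1, 2, 3, 5, 6 or 8 (-1.03 to -0.47). Krt8 was lower in endothelial, stellate, Kupffer and leukocyte nuclei by 0.98 to 1.52 under TMM, and with RLE size factors the stellate, Kupffer and leukocyte calls were lost. In mesothelial-like nuclei its difference was -0.73 (adjusted p = 0.473).

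**Figure D4:**
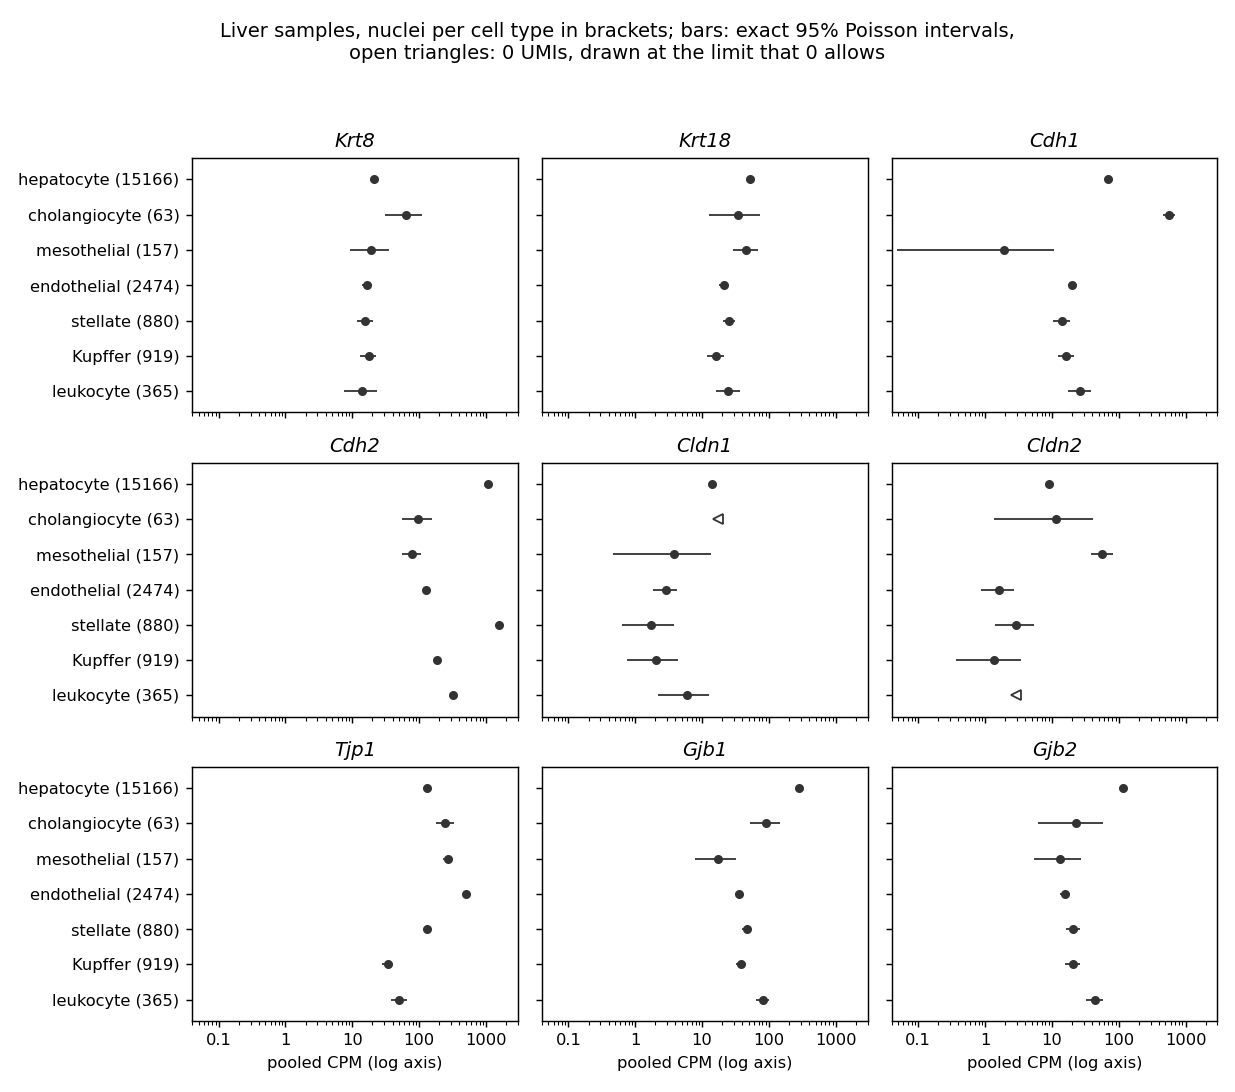
Pooled CPM of each member in 7 cell types of the Liver samples on a log axis, with exact Poisson 95% intervals for counting error, the number of nuclei in brackets, and an open triangle at the limit of a count of 0. Cdh1 is highest in cholangiocytes at 574, Cdh2 in stellate cells at 1557 and Tjp1 in endothelial cells at 501.

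Krt8 and Krt18 were also higher after isolation and culture in endothelial-marker nuclei, the most numerous class besides hepatocytes. Krt8 ran from 4.19 over a median of 12.0 to 45.9 TMM CPM in L, from 5.78 over 65.4 to 199 in CS and from 60.8 over 134 to 172 in PH. Krt18 ran from 5.33 over 14.5 to 49.0 in L, from 17.3 over 108 to 281 in CS and from 102 over 139 to 191 in PH. CS exceeded L in 8 of 8 mice for both, and PH exceeded L without overlap. Pooled CPM of the sparser classes, given without a test, had the same order against L. Krt8 was at 15.7, 190 and 179 in stellate and 17.5, 66.9 and 154 in Kupffer nuclei of L, CS and PH, and Krt18 at 25.3, 329.8 and 207 in stellate and 16.1, 154 and 177 in Kupffer nuclei. Krt8 rose from L to CS by 2.18 (SE 0.40, adjusted p = 3.61e-04; 3.9% of 18279 genes were called), or by 1.14 with the pool as a covariate (adjusted p = 0.0523), and from L to PH by 2.85 (SE 0.37, adjusted p = 3.11e-08; 33.8% called). Krt18 rose by 2.43 (SE 0.34, adjusted p = 3.7e-06) and 2.70 (SE 0.33, adjusted p = 6.03e-09).

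Hepatocyte markers were also present in these nuclei. The 7 hepatocyte markers summed to 1849 to 3915 CPM in the endothelial-marker nuclei of L, 1639 to 5903 in CS and 1154 to 4346 in PH. Their level there was a median of 24.0% of that in hepatocyte nuclei in L (range over markers 13.3% to 57.2%), 21.2% in CS (14.2% to 79.3%) and 77.8% in PH (33.7% to 169%). The same percentage was 78.2% in L, 15.4% in CS and 42.3% in PH for Krt8, and 39.8%, 13.4% and 38.0% for Krt18. In L, mouse 5 alone gave 74 of the 146 Krt8 UMIs and 79 of the 185 Krt18 UMIs of the endothelial-marker nuclei. In CS and PH both keratins lay within or below the range of the hepatocyte markers. That range in PH rests on markers that had all fallen in hepatocyte nuclei from L to PH (7 of 7 called, median log2 -1.85). Gjb1 and Gjb2 stood at 75.4% and 109% in PH. In L, CS and PH, Cdh1 stood at 29.9%, 34.3% and 27.4%, and Cdh2 at 11.8%, 16.2% and 35.9%. Cldn1 stood at 19.9%, 62.0% and 45.4%, and Cldn2 at 17.7%, 38.2% and 47.5%. The part of free RNA in these keratin, connexin, cadherin and claudin values, and in their changes given below, was not tested. Tjp1 stood at 378%, 328% and 294%, above every hepatocyte marker.

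Other members called in endothelial-marker nuclei from L to PH were Cdh1 (1.08, SE 0.29, adjusted p = 0.00268), Cldn1 (1.77, SE 0.45, adjusted p = 0.00163) and Gjb1 (-1.03, SE 0.29, adjusted p = 0.00539). With the pool as a covariate Cldn1 (1.20, adjusted p = 0.224) and Gjb1 (-0.34, adjusted p = 0.605) lost the call. Thinned to the smallest sample, the calls of Cdh1 (1.04, adjusted p = 0.152), Cldn1 (1.31, adjusted p = 0.286) and Gjb1 (-0.86, adjusted p = 0.222) were all lost, as was Cldn1 on spliced counts alone (1.08, adjusted p = 0.143). Cldn1 had 25 UMIs in all in L and 35 in PH. Tjp1 ranged from 410 over a median of 490 to 580 TMM CPM in L, from 301 over 417 to 514 in CS and from 312 over 514 to 779 in PH. Its rise from CS to PH (0.42, SE 0.15, adjusted p = 0.0471; 20% called) was lost without mouse 1, 3, 5 or 6, with no count filter, on spliced counts alone, from nuclei of at least 1000 UMIs and with the pool as a covariate (0.25, adjusted p = 0.333). Gjb2 fell in these nuclei from CS to PH (-1.55, SE 0.39, adjusted p = 0.00242), from a median of 30.6 to 9.84 TMM CPM, with 64 UMIs in all in CS and 35 in PH, and the call was lost on unspliced counts alone (-0.82, adjusted p = 0.33).

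The changes of the 2 populations were compared in 1 edgeR fit with the sample as a block. On isolation the rise in endothelial-marker nuclei was smaller than in hepatocyte nuclei by 2.23 for Krt8 (-2.23, adjusted p = 2.39e-10) and by 1.39 for Krt18 (-1.39, adjusted p = 9.63e-05), where 2.79% of 27025 genes were called. From L to PH the keratin changes were not called different (Krt8 -0.53, adjusted p = 0.15, Krt18 0.30, adjusted p = 0.483). The L to PH changes of Cdh2, Gjb1 and Gjb2, all falls in hepatocyte nuclei, were higher in endothelial-marker nuclei by 1.79, 2.70 and 3.31 on the log2 scale (adjusted p = 7.69e-13, 7.83e-14 and 2.75e-12; 24.5% called). In endothelial-marker nuclei themselves Cdh2 was at 0.01 (adjusted p = 0.977) and Gjb2 at -0.76 (adjusted p = 0.0961). Within PH, Gjb1 was lower in endothelial-marker than in hepatocyte nuclei by -0.59 (SE 0.24, adjusted p = 0.0442) and Gjb2 differed between the populations by 0.04 (SE 0.30, adjusted p = 0.935). Tjp1 was higher in endothelial-marker nuclei in each sample type, by 1.42 in L, 1.07 in CS and 1.24 in PH, where 42.9%, 31.4% and 30.8% of genes were called. From CS to PH the populations differed in their change for 5 members, with 18.4% of genes called. The change was higher in endothelial-marker nuclei by 1.70 for Krt8, 1.69 for Krt18, 1.42 for Cdh2, 2.79 for Gjb1 and 3.71 for Gjb2.

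**Figure D5:**
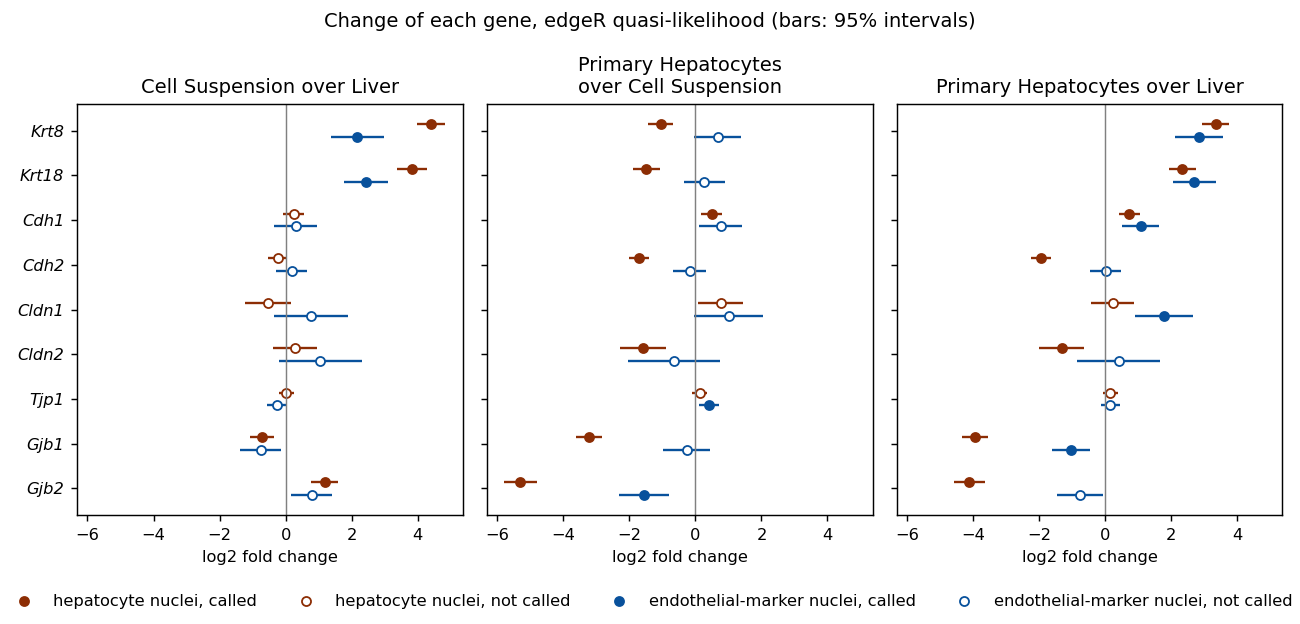
Log2 fold change of each member in hepatocyte and endothelial-marker nuclei for the 3 comparisons of sample types, with bars of 95% intervals from the edgeR standard errors and filled points where the adjusted p is under 0.05. The keratins rise in both populations from Liver to Primary Hepatocytes, whereas Gjb1 lies at -3.94 in hepatocyte and -1.03 in endothelial-marker nuclei.

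Other genes of the same structures were read from lists chosen for this tissue, with earlier results of these data known. Among 9 keratin and keratin linker genes, 5 rose and 1 fell in hepatocyte nuclei from L to PH (median log2 1.00, against 0.10 over all genes, of which 27.4% rose and 26.3% fell). The plakins Eppk1, epiplakin (log2 2.98, SE 0.17, adjusted p = 1.59e-15), and Ppl, periplakin (2.16, SE 0.35, adjusted p = 4.36e-06), which bind keratin filaments, rose most. Eppk1 medians were 31.7, 80.3 and 252 TMM CPM in L, CS and PH. Of 9 desmosome genes 3 rose and 5 fell. Dsp, desmoplakin, rose by 1.59 (SE 0.15, adjusted p = 1.71e-10), whereas the desmosomal cadherins Dsc2 (-0.95) and Dsg2 (-0.94) fell, the former at -0.36 on spliced counts alone (adjusted p = 0.0664). Pkp2 also rose (0.46), a call lost with the pool as a covariate (0.09, adjusted p = 0.726).

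Of 11 adherens junction genes 2 rose and 4 fell, to be read, like the lists that follow, against the same 27.4% and 26.3% of all genes. Vcl, vinculin, which couples cadherin complexes to actin, rose by 1.52 (SE 0.21, adjusted p = 2.11e-07) and had already risen in CS by 1.59, and Nectin3 fell by 1.49 on the log2 scale (-1.49, SE 0.14, adjusted p = 1.34e-10). Shroom3, an actin-binding regulator of apical constriction, fell by 2.68 on all counts but by 0.25 on spliced counts alone (-0.25, adjusted p = 0.101). Pdlim5 rose by 0.52, which was 0.04 with the pool as a covariate (adjusted p = 0.897). Of 22 tight junction genes 7 rose and 11 fell (median -0.44). The polarity kinase Prkci rose by 1.34, while occludin, Ocln, fell (-1.93) and Mpdz, a scaffold with many PDZ domains, fell (-1.70), all with adjusted p of 3.95e-09 or less. Of the 6 gap junction genes that could be tested, 2 rose, neither at 5 CPM on average, so none is named.

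Genes linked to epithelial to mesenchymal transition did not move as a block, with 4 of 9 higher and 3 lower from L to PH. Zeb1 fell by 1.15 (-1.15, adjusted p = 3.12e-09) and Zeb2 rose by 0.98 (adjusted p = 2.8e-04), 2 repressors known to act on the Cdh1 promoter, though Zeb2 gave 0.59 on spliced counts alone (adjusted p = 0.0618). Fn1, fibronectin, rose from L to CS by 0.98 and ended below L by -0.75 in PH. Of 8 endothelial junction genes 4 rose in hepatocyte nuclei from L to PH (median 0.73). The named one, Pecam1, rose from a median of 4.22 to 7.26 TMM CPM (0.78, adjusted p = 2.67e-05). The 9 endothelial markers, Pecam1 itself among them, summed there to 31.4 to 50.6 CPM in L and 116 to 171 in PH. The part of endothelial RNA in the Pecam1 value was not tested.

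The genes whose profile over the 24 samples was most like a member's are given as a description, by Pearson correlation of log2(CPM + 1) in hepatocyte nuclei among 8372 genes of at least 10 CPM on average. The 24 points share 3 sample types, 8 mice and 6 pools. Krt8 was closest to Actb, beta-actin (r = 0.986), and Btg2 (0.985), an immediate early gene, both highest in CS at medians of 717 and 508 CPM. Krt18 was closest to Ccn1 (0.978) and Ppp1r15a (0.976). Gjb1 was closest to the mitochondrial genes Acat1 and Sirt3 (both 0.989), and Gjb2 was close to Pdp2 (0.987). Cdh2 was closest to Slc10a7 (0.987) and Pex7 (0.984). Weaker leads were found for Cldn2 (Ints7, 0.915, and Ppp2r5c, 0.910), Cldn1 (Atf5, 0.891, and Gm26632, 0.843), Tjp1 (Fnbp1l and Chm, both 0.887) and Cdh1 (Col4a2, 0.853, and Gnai2, 0.851).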

How the data were processed

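Nuclei of 24 samples, 1 of each sample type from each of 8 mice, were sequenced in 6 hashtagged 10x pools. The authors deposited whole-number UMI counts per gene and nucleus, kept apart as spliced, unspliced and ambiguous counts, made with Salmon alevin on a GRCm38 spliced and unspliced reference (bcl2fastq 2.19.0 per the labels). They assigned hashtags, removed doublets with scDblFinder and clustered and annotated the nuclei, so no doublet caller was run here. The deposited annotation gave cell types and clusters, but labelled most PH nuclei only as Cultured Cells. Such a cluster took the non-hepatocyte type of highest marker fold, if at least 2-fold the level of other nuclei and 1000 CPM. All other such clusters were counted as hepatocytes by default. In these (0, 1, 8, 14 and 17) hepatocyte markers stood at 0.320 to 0.886-fold the other nuclei. Stellate markers in cluster 17 stood at 2.22-fold (521 CPM). The hashtag named CD2, which the annotation groups with the CS nuclei, was read as the CS sample of mouse 2.

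Counts of the 3 kinds were summed per sample over hepatocyte nuclei, over endothelial-marker nuclei and over all nuclei, and per cell type and lobule zone, with sums of at least 10 nuclei. Genes with 10 or more counts were tested with edgeR 4.0.16 (quasi-likelihood, TMM, Benjamini-Hochberg, adjusted p under 0.05) in R 4.3.3. The study's own sums were tested with DESeq2, which was used here as an alternative (DESeq2 1.42.0). Ratios and unspliced shares were tested in Python 3.11.15 with scipy 1.17.1. The other settings were RLE size factors, other count filters, spliced or unspliced counts alone, ambiguous counts added to the spliced for shares, the mouse as a block, the pool as a covariate, thinning to the smallest sample, a minimum of UMIs per nucleus or of nuclei per sum, only nuclei annotated as cultured in PH, other zone scores and each mouse left out. Sums without cluster 8 were added after the data had been seen. On simulated data with 200 genes changed by 2-fold, 84.5% were recovered in hepatocyte nuclei (26778 genes), 64.5% in endothelial-marker nuclei (18279 genes), 88.5% in all nuclei (27269 genes) and 98.5% between zones (25724 genes). The simulation used 1 dispersion of 0.05 for all genes, no mouse or pool effect, and changed only genes above a limit of mean counts. These shares are thus not the power of the tests on the members.

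The members and lists were chosen with earlier results of these data known. All 9 members are named. Of each list, up to 2 genes with the greatest rise and 2 with the greatest fall from L to PH are named among those called with a mean of at least 5 CPM, and for each member the 2 closest genes of at least 10 CPM. Some genes that this rule names are not reported here. A mouse number marks 1 animal in all 3 sample types, which pairs the samples. Deviations from the group means correlated between samples of 1 mouse at -0.17 to 0.85 (median 0.0867), above 0.1 for 11 of 24 pairs, and 10 of 24 correlated best with their own mouse. The L with CS pairs lay at 0.34 to 0.85 and the pairs with PH at -0.17 to 0.13. Gene positions are from GENCODE on GRCm38. Intervals on counts cover counting error only.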

Additional observations from a re-analysis of the deposited data

Results flagged for a closer look

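Of 54 groups of 8 samples tested for a sample that stands apart, 1 had such a sample. Cdh2 in hepatocyte nuclei of mouse 4 in PH was the lowest of the 8 PH samples at 228 TMM CPM, the next sample being at 289, a gap of 0.561 of the range. Chance marks about 1 group in 20.

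The change of several members differed between endothelial-marker and hepatocyte nuclei by a test of the difference itself (edgeR, sample as a block). From L to CS the change in endothelial-marker nuclei minus that in hepatocyte nuclei was -2.23 for Krt8 and -1.39 for Krt18 on the log2 scale. From L to PH it was 1.79 for Cdh2, 1.70 for Cldn1, 2.70 for Gjb1 and 3.31 for Gjb2. The Cldn1 value had adjusted p = 6.54e-04 and lost its call on unspliced counts alone (1.56, adjusted p = 0.0785). From CS to PH it was 1.70 for Krt8, 1.69 for Krt18, 1.42 for Cdh2, 2.79 for Gjb1 and 3.71 for Gjb2. The hepatocyte marker levels in these nuclei are given with the comparison of the populations above, and their part was not tested.

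The pericentral minus periportal log2 difference also changed between sample types by a test of the change. In CS minus L this was 1.11 for Cdh1 and -0.45 for Gjb2. In PH minus L it was 3.34 for Cdh1, -0.77 for Cdh2, -1.95 for Cldn2, -0.62 for Gjb2 and -0.30 for Krt8. The Krt8 value passed narrowly (adjusted p = 0.0483) and lost its call when nuclei were cut at the median score, when they were scored on all UMIs, with RLE size factors and without mouse 1, 3, 4, 5, 7 or 8. In PH minus CS the changes were -0.69 for Krt8, -0.40 for Krt18, 2.23 for Cdh1, -0.62 for Cdh2 and -2.06 for Cldn2. PH nuclei held few UMIs of the score genes, and how much of these changes follows from the score cannot be told apart.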

How the results depend on the processing

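Counts of called members and ratios of paired members kept their direction and side of the threshold, with counts within 1.5 times, in 156 of 172 comparisons with another setting and in 270 of 280 with 1 mouse left out. For single genes the same held in 1045 of 1111 and 1289 of 1352. Spliced counts alone called 5 members instead of 8 from CS to PH over all nuclei. From CS to PH in endothelial-marker nuclei 1 member was called instead of 2 with edgeR's own filter, with no filter, from nuclei of at least 1000 UMIs, with the pool as a covariate and on unspliced counts, and 1 to 2 with a mouse left out. From L to PH there, 3 members instead of 5 were called with the pool as a covariate and 2 when thinned to the smallest sample. Zone calls in PH went from 1 (Cdh1) to 0 when nuclei were cut at the median and to 3 when scored on all UMIs, and those of the CS minus L change of zone difference (2) ran from 1 to 3 with a mouse left out.

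Among the ratios, the log2 step of Krt8 to Krt18 was 0.50 from L to CS on unspliced counts and 0.10 from CS to PH on spliced counts, without a call in either. That of Cdh1 to Cdh2 from L to CS was 0.44 on unspliced counts, 0.37 on spliced counts and 0.42 to 0.56 with a mouse left out, with no call on either kind alone. That of Cldn1 to Cldn2 turned to 0.081 on unspliced counts, which were too few for Cldn2 to decide.

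With the mouse as a block, the pairing added 2 calls, Cldn1 in hepatocyte nuclei from CS to PH (0.96) and the Cldn1 to Cldn2 ratio from L to CS (-0.61), and changed no other call.

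Some single values turned their sign. In hepatocyte nuclei these were, from L to CS, Cdh2 (0.29, spliced), Cldn2 (-0.058 spliced, -0.69 unspliced) and Tjp1 (-0.18 with the pool, -0.022 to 0.074 with a mouse left out). From L to PH they were Cldn1 (-0.11 with the pool, -0.22 spliced, -0.0083 to 0.50 with a mouse left out) and Tjp1 (-0.17 with the pool). Zone differences that turned were Gjb1 in CS (-0.020 with a cut at the median, -0.024 to 0.051 with a mouse left out), Tjp1 in L (0.0029 and -0.047 to 0.0024), Krt8 in PH (0.012, 0.0025 with RLE, -0.022 to 0.010) and Cdh2 in PH (-0.029, all UMIs). RLE size factors turned Krt8 in mesothelial-like (0.0040) and Tjp1 in stellate nuclei (0.017), the latter called under TMM (-0.43, adjusted p = 0.0104) but not without mouse 1, 2, 3, 5 or 8 (-0.32 to -0.25). RLE moved the median of all genes in hepatocyte nuclei from 0.10 to 0.20 from L to PH and from 0.02 to 0.10 from L to CS. The cause of these shifts was not tested.

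Depth limited Cldn1 and Cldn2, with as few as 10 UMIs per sample, and cholangiocytes, with 63 nuclei in L. Values of Cldn2 on unspliced counts alone rest on 41, 10 and 17 UMIs in hepatocyte nuclei of L, CS and PH.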

Other observations

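Cultured hepatocyte nuclei fell into 4 clusters annotated as Cultured Cells, besides cluster 8, and the members varied among them. Values are the median CPM of the 8 PH samples, given as a description because these genes entered the clustering. Cluster 0, led by Sprr1a, Ccn2 and Anxa3, had Cdh1 at 260 (159 to 348), Krt8 at 433 and Krt18 at 512. In cluster 1, led by Plcl1 and Slc10a6, the same genes were at 100, 258 and 282, and in cluster 14 at 73.6, 214 and 252. Cluster 17, led by Ugt2b37, had Cdh1 at 101. Of the 4 it had the highest median of Gjb1, at 50 (9.02 to 103) against 16.6 to 23.7 in the other 3. Its Gjb2 median was also the highest, at 15.5 (10.1 to 19.2) against 3.8 to 12.5. Cluster 8, left out of these comparisons, had Cdh1 at 160, Krt8 at 489 and Krt18 at 528. The 8 cholangiocyte markers summed to 306 CPM in cluster 0 and to 86.3, 151 and 67.4 in clusters 1, 14 and 17, and their part in the Krt8, Krt18 and Cdh1 values was not tested. Among the 4 clusters Cdh2 ran from 297 in cluster 17 to 472 in cluster 0.

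The few cholangiocyte nuclei of the isolated and cultured samples, pooled over mice, had Krt18 at 1121 CPM in CS (110 UMIs, exact Poisson 95% interval 921 to 1351) and 1125 in PH (86 UMIs), against 34.1 in L (6 UMIs, 12.5 to 74.2). Their Tjp1 was at 244 CPM in L, 245 in CS and 275 in PH. The intervals cover counting error only, and no test was made.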
